A study of Mus musculus with 22 samples.

Results

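Hox genes encode homeodomain transcription factors that set the identity of body segments along the head-to-tail axis. In the mouse they lie in clusters a to d on separate chromosomes, with paralogue numbers 1 to 13 running from genes of anterior to genes of posterior body regions. In pluripotent stem cells most of them are kept silent under marks of the Polycomb complexes, and retinoic acid, Wnt and FGF signals open the clusters during gastrulation. The genes described here are all those on the array whose symbol is Hox, a cluster letter and a number. There were 37 of them among 19938 genes with a symbol: 10 in cluster a and 9 each in clusters b, c and d.

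The study measured RNA of mouse embryonic germ (EG) cell lines, derived from embryos at day 8.5, and of embryonic stem (ES) cell lines on 22 Affymetrix mouse gene arrays, 1 for each sample. EG FCS lines (n = 4, 1 female) were derived in medium with fetal calf serum (FCS) and leukaemia inhibitory factor (LIF) on mouse embryonic fibroblast feeders. EG 2is lines (n = 4, 2 female) spent their first 2 days in that medium and then went to 2i, and EG 2i lines (n = 4, 3 female) were derived in 2i directly. 2i is N2B27 medium with LIF and inhibitors of MEK (PD0325901) and of GSK3 (CHIR99021), and cells in it were grown on laminin, so medium and feeder layer changed together. ES FCS (n = 5, 2 female) and ES 2i (n = 5, 2 female) are ES lines in those cultures. All 22 samples share a strain label, 129SvEv x Oct4-delta-PE-GFP transgenic, of mixed background. Per the series text established ES lines were also moved from one culture to the other, and which samples, if any, are of 1 line is not given. The cell type label of all 10 ES samples reads EGCs, against their titles and source names, and they were taken as ES lines. Each sample is called a line here, but no label tells whether samples came from separate cultures. The p-values here measure no more than the variation among the 22 samples, which may be technical.

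The labels put all 12 EG samples and ES lines 1 and 2 of each culture in batch 1 and ES lines 3 to 5 in batch 2. All 7 pluripotency markers on the list used (Pou5f1, Nanog, Sox2, Esrrb, Zfp42, Tdgf1 and Dppa5a) were above background in every group, and their mean log2 level was 11.2 to 11.3. The mean of 21 feeder fibroblast markers was 6.92 ± 0.31 (SD, n = 4) in EG FCS and 6.86 ± 0.25 (SD, n = 5) in ES FCS lines, and it lay between 5.94 and 6.15 in all 13 lines in 2i or 2is. Of these 21 markers 10 were lower and 0 higher in EG 2i than in EG FCS, 12 were lower and 1 higher in EG 2is, and 14 were lower and 3 higher in ES 2i. By the same limma threshold, given below, 12.5%, 12.9% and 14.9% of all genes were lower and 11.4%, 12.7% and 16.6% higher. The markers led with Acta2 and Thbs1, which fell by 4.50 and 4.24 on the log2 scale in EG 2i. Feeder markers therefore moved against the Hox genes described below, and their part in those differences was not tested. A fit with their mean as a term was run, but that mean was 6.55 to 7.29 in FCS lines, with no overlap. The term nearly stands for the culture, so a call kept or lost with it does not tell the 2 apart. In such bulk samples fewer cells with a transcript and less of it in each cell cannot be told apart.

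Most Hox genes were near the background of the array. As background, 1015 olfactory receptor genes, which these cells are not known to use, had a median of 4.76 in log2 level over the 22 arrays and a 95th percentile of 5.38, the level called background here. The Y-linked gene Eif2s3y read 4.61 to 4.88 in the 10 female lines. Over all arrays the means of the 37 Hox genes ran from 4.50 (Hoxa3) to 5.92 (Hoxc12), with a median of 5.15, against a median of 5.67 over all genes. Of the 37, 11 (29.7%) had such a mean above background, against 56.2% of all genes. With each group taken by itself, 17 of 37 had a group mean above 5.38: 4 in cluster a, 4 in b, 4 in c and 5 in d. That count depends on the level chosen, with 29 above the highest female Eif2s3y level and 8 above the 99th percentile of the olfactory receptor genes (5.71). Each probe set has a background of its own, so a steady level above 5.38 is not a measure of transcript, and levels are compared below between groups for 1 gene and not between genes.

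**Figure D1:**
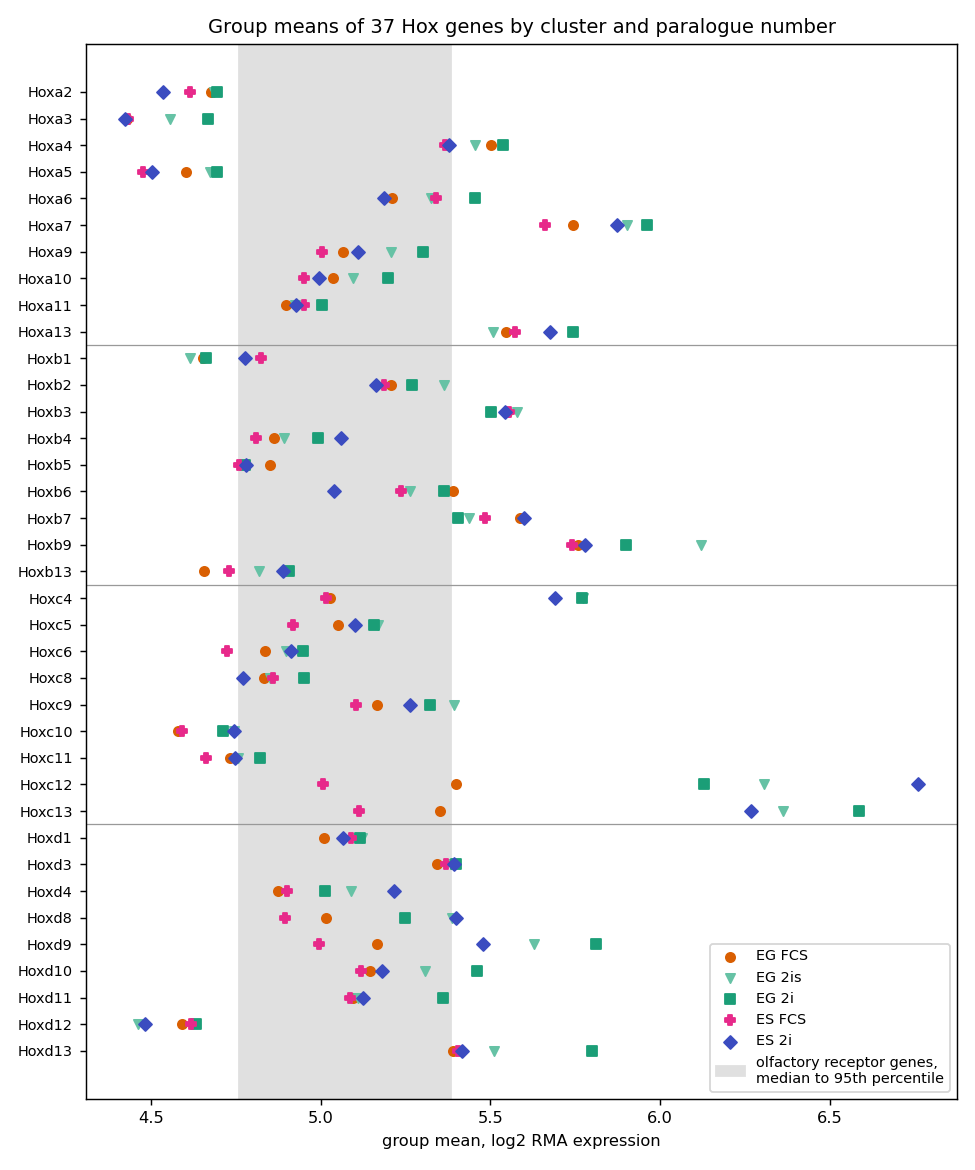
Group mean of each of the 37 Hox genes on the log2 scale (x axis), ordered by cluster and paralogue number (y axis), with a symbol for each of the 5 groups and grey from the median to the 95th percentile of the olfactory receptor genes. Most genes have all 5 symbols close together in or near the grey band, while Hoxc4, Hoxc12, Hoxc13 and Hoxd9 have both FCS groups apart from the 3 groups in 2i or 2is.

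Hox genes were higher in 2i than in FCS in a few places of clusters c and d. In EG 2i against EG FCS lines 10 of 37 were called higher and 0 lower at a limma adjusted p under 0.05 over all genes. Of all 19938 genes 11.4% were called higher and 12.5% lower in that comparison, 23.9% in all. By cluster the 10 were Hoxa3 and Hoxa9, Hoxb13, Hoxc4, Hoxc12 and Hoxc13, and Hoxd8, Hoxd9, Hoxd10 and Hoxd13. The median difference over the 37 was 0.13 on the log2 scale against 0.01 over all genes, and it was above 0 for 34 of 37 Hox genes (91.9%, against 51.6% of all genes). Without EG 2i line 4 the count was 6. That line is the only male of its group, and sex is a term of the fit, so leaving it out also changes the balance of sexes. When arrays were centred on their medians, or normalized by quantiles again, 8 were higher and 1 lower. The 1 lower gene was Hoxb7, at −0.24 and −0.25 with these steps (adjusted p = 0.0459 and 0.0452) and at −0.21 without them (adjusted p = 0.0852). In EG 2is against EG FCS lines, which share the FCS lines with the first comparison, 6 were higher and 0 lower, against 12.7% and 12.9% of all genes (25.6% in either direction): Hoxb9, Hoxc4, Hoxc12, Hoxc13, Hoxd8 and Hoxd9. In ES 2i against ES FCS lines, whose samples are all different, 9 were higher and 1 lower, against 16.6% and 14.9% of all genes (31.6% in either direction). The 9 were Hoxa7, Hoxb4, Hoxc4, Hoxc5, Hoxc12, Hoxc13, Hoxd4, Hoxd8 and Hoxd9, and the lower one was Hoxb6. The median difference was 0.10 in EG 2is lines, with 30 of 37 above 0 (81.1%, against 47.4% of all genes), and 0.04 in ES 2i lines, with 26 of 37 above 0 (70.3%, against 50.1%).

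Hoxc4, Hoxc12, Hoxc13, Hoxd8 and Hoxd9 were called higher in both EG 2i and ES 2i lines, which makes 5 of the 10 genes called in EG and 5 of the 9 called higher in ES. Over all genes 70.9% of those called higher in EG 2i and 48.6% of those called higher in ES 2i were higher in both. As a share of the genes tested that was 13.5% of the 37 Hox genes and 8.09% of all genes. For 4 of them (Hoxc4, Hoxc12, Hoxc13 and Hoxd9) every one of the 13 lines in 2i or 2is was above every one of the 9 FCS lines. Of all genes 4.49% had that order, and for 0 of 37 Hox genes it ran the other way (4.13% of all genes). In cluster c the genes called higher were at its ends, Hoxc4 with Hoxc5, which was called in ES 2i lines alone, and Hoxc12 with Hoxc13. Hoxc6, Hoxc8, Hoxc9, Hoxc10 and Hoxc11 between them were called in 0 of the 3 comparisons with FCS lines. Of all genes 23.9%, 25.6% and 31.6% were called in EG 2i, EG 2is and ES 2i lines. By unadjusted limma p under 0.05, 1 of these 5 Hox genes passed in EG 2i (Hoxc8), 1 in EG 2is (Hoxc9) and 0 in ES 2i. Of all 19938 genes 6793, 7013 and 7806 passed. With 5 genes this is a description.

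**Figure D2:**
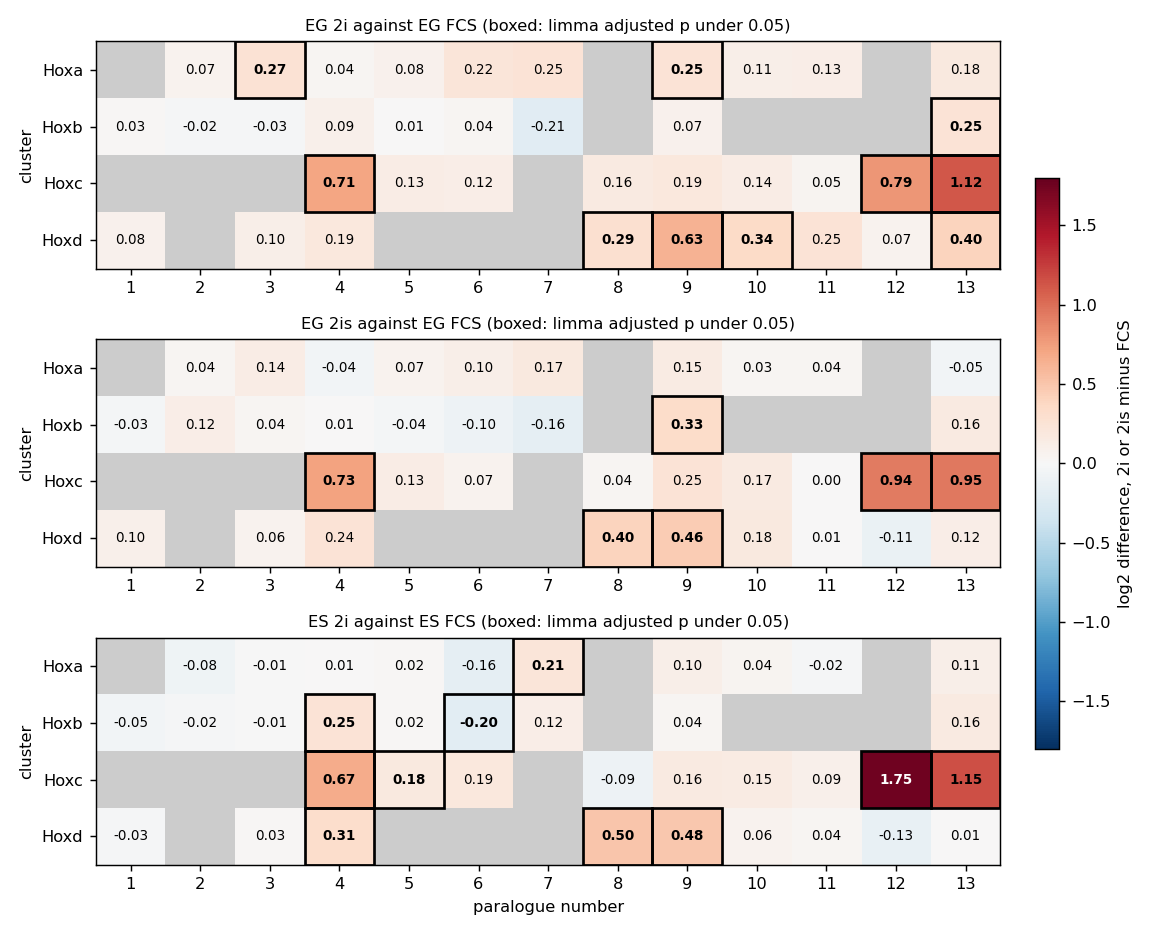
Fitted log2 difference of each Hox gene by cluster (rows) and paralogue number (columns), for EG 2i, EG 2is and ES 2i lines against the FCS lines of the same origin. Grey squares have no gene analysed here, and boxes mark a limma adjusted p under 0.05; the boxes lie mostly in clusters c and d, and Hoxc12 in ES lines has the largest difference of the 3 panels, 1.75.

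Hoxc13, the most posterior gene of cluster c and a regulator of keratin genes in hair and nails, had the largest difference of the 37 Hox genes between EG 2i and EG FCS lines. It was at 5.40, 5.23, 5.38 and 5.39 in EG FCS lines 1 to 4 and at 5.58, 5.08, 5.02, 4.95 and 4.94 in ES FCS lines 1 to 5. It was at 6.28, 6.95, 6.85 and 6.25 in EG 2i, at 6.22, 6.19, 6.38 and 6.66 in EG 2is and at 6.18, 6.15, 6.45, 6.37 and 6.18 in ES 2i lines. All FCS lines were low and near background, ES FCS line 1 being the highest of them, and no 2i or 2is line came as low. On the log2 scale Hoxc13 rose by 1.12 in EG 2i (2.17-fold, SE 0.14, adjusted p = 1.23e-05), by 0.95 (SE 0.14, 1.94-fold, adjusted p = 3.21e-05) in EG 2is and by 1.15 (SE 0.12, 2.22-fold, adjusted p = 6.10e-07) in ES 2i lines. With batch 1 arrays alone the ES difference was 0.84 (adjusted p = 0.00832) and with batch 2 arrays alone 1.36 (adjusted p = 0.000159).

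Hoxc12, its neighbour in the cluster and also a gene of posterior regions, had the widest spread among lines. It was at 5.33, 5.36, 5.61 and 5.29 in EG FCS lines and at 5.49, 5.12, 4.62, 4.90 and 4.92 in ES FCS lines. In 2i it was at 5.88, 6.17, 6.12 and 6.34 in EG lines and at 6.55, 6.15, 6.33, 7.52 and 7.25 in ES lines, and it was at 6.31, 6.08, 6.29 and 6.54 in EG 2is lines. ES 2i lines 4 and 5 were the highest of its 22 arrays, and FCS and 2i lines did not overlap. Hoxc12 rose by 1.75 (SE 0.21, 3.37-fold, adjusted p = 2.83e-06) in ES 2i lines. Without ES 2i line 4 it rose by 1.56 and without line 5 by 1.64, and with batch 1 and batch 2 arrays alone by 1.05 (adjusted p = 0.00167) and 2.22 (adjusted p = 0.000437). In EG 2i lines Hoxc12 rose by 0.79 (SE 0.25, 1.73-fold, adjusted p = 0.0236) and in EG 2is lines by 0.94 (SE 0.24, 1.92-fold, adjusted p = 0.00567). The EG 2i call was lost without EG FCS line 1 (adjusted p = 0.0642) or EG 2i line 4 (adjusted p = 0.0880). These are the only female EG FCS line and the only male EG 2i line. With the feeder marker mean as a term it was lost in EG 2i (1.04, adjusted p = 0.146) and in EG 2is lines (1.18, adjusted p = 0.0820). The EG response was smaller than the ES response by 0.96 (SE 0.32), but that difference between responses was not called (adjusted p = 0.135).

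Hoxc4, at the anterior end of cluster c and known from the patterning of the neck and upper trunk and from B cells, differed little among the lines of a group. Its log2 levels were 5.04, 5.12, 4.91 and 5.03 in EG FCS and 5.07, 5.01, 5.01, 4.99 and 5.00 in ES FCS lines. They were 5.71, 5.73, 6.01 and 5.62 in EG 2i, 5.70, 5.67, 5.94 and 5.79 in EG 2is and 5.69, 5.69, 5.61, 5.81 and 5.65 in ES 2i lines. All 9 FCS lines were below background and all 13 others above it. Hoxc4 rose by 0.71 (SE 0.08, 1.64-fold, adjusted p = 3.17e-06) in EG 2i, by 0.73 (SE 0.08, 1.66-fold, adjusted p = 1.03e-06) in EG 2is and by 0.67 (SE 0.07, 1.60-fold, adjusted p = 3.91e-07) in ES 2i lines. In ES lines it rose by 0.65 with batch 1 arrays alone and by 0.69 with batch 2 arrays alone.

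Hoxd9, a gene of the middle of cluster d that acts in the limbs and the lumbar and sacral spine, was at 5.17, 5.08, 5.13 and 5.28 in EG FCS and at 5.27, 5.03, 4.93, 4.81 and 4.93 in ES FCS lines. It was at 5.62, 5.89, 6.00 and 5.73 in EG 2i, at 5.46, 5.58, 5.58 and 5.89 in EG 2is and at 5.31, 5.47, 5.30, 5.73 and 5.58 in ES 2i lines. The lowest 2i line, ES 2i line 3, was just above the highest FCS line, EG FCS line 4. Hoxd9 rose by 0.63 (SE 0.12, 1.55-fold, adjusted p = 0.000806) in EG 2i, by 0.46 (SE 0.12, 1.37-fold, adjusted p = 0.00667) in EG 2is and by 0.48 (SE 0.10, 1.40-fold, adjusted p = 0.00122) in ES 2i lines. With batch 1 arrays alone, 2 ES lines in each culture, the ES difference was 0.23 and not called (adjusted p = 0.349), and with batch 2 arrays alone it was 0.65 (adjusted p = 0.00563).

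Hoxd8, next to Hoxd9 and a gene of the trunk, was at 5.03, 4.82, 5.23 and 4.98 in EG FCS and at 5.04, 4.88, 4.73, 5.00 and 4.82 in ES FCS lines. It was at 5.26, 5.11, 5.26 and 5.37 in EG 2i, at 5.27, 5.64, 5.35 and 5.29 in EG 2is and at 5.27, 5.40, 5.22, 5.50 and 5.61 in ES 2i lines. EG 2is and ES 2i lines did not overlap with their FCS lines, while EG 2i line 2 was below EG FCS line 3. Hoxd8 rose by 0.50 (SE 0.09, 1.42-fold, adjusted p = 0.000176) in ES 2i and by 0.40 (SE 0.10, 1.32-fold, adjusted p = 0.00530) in EG 2is lines. With batch 1 arrays alone the ES difference was 0.37 and not called (adjusted p = 0.109), and with batch 2 arrays alone it was 0.59 (adjusted p = 0.00250). In EG 2i lines it rose by 0.29 (SE 0.10, adjusted p = 0.0469), a call at the threshold. Leaving out any 1 of FCS lines 1, 2 and 4 and 2i lines 1, 3 and 4 of the EG cells ended that call (adjusted p from 0.0528 to 0.138), and it was lost in 9 of the 12 other alternatives.

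**Figure D3:**
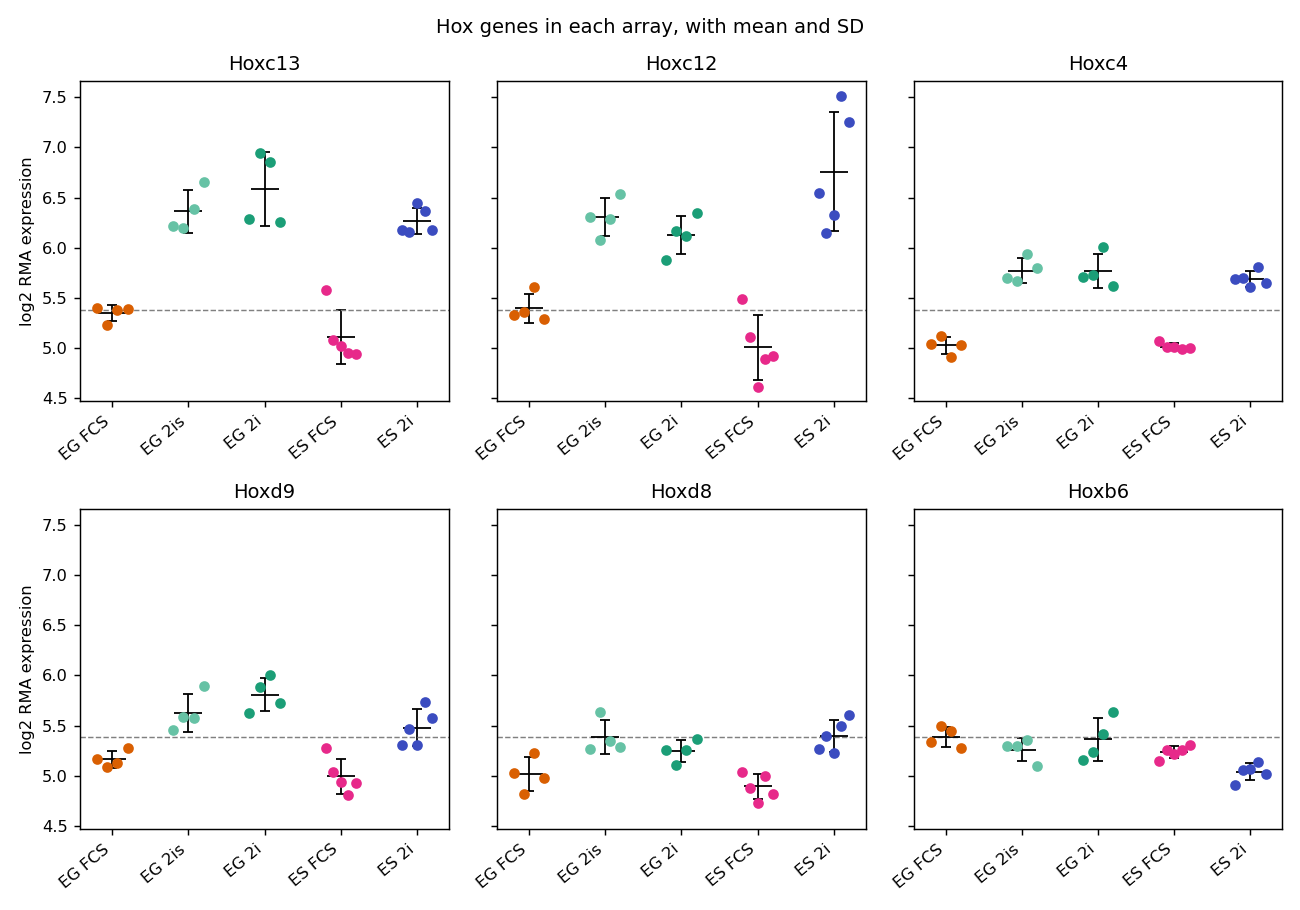
Log2 level of 6 Hox genes in each of the 22 arrays (points, 1 for each line), with group means and SD (bars); the dashed line is the background level of 5.38. For Hoxc13, Hoxc12, Hoxc4 and Hoxd9 all 2i and 2is lines are above all FCS lines, for Hoxd8 the ranges overlap, and Hoxb6 is lower in ES 2i than in ES FCS lines.

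The promoters of Hoxc4, Hoxd9 and Hoxd8 are shown to let their sequences be read beside that of Hoxd1, an anterior gene of cluster d picked after its values were seen because it was not called. Hoxd1 differed by 0.08, 0.10 and −0.03 on the log2 scale in EG 2i, EG 2is and ES 2i lines and was not called. The windows are from RefSeq (GRCm38.p6), run from 250 bases before to 50 after the annotated start, and are written 5′ to 3′ on the gene's strand with each CpG dinucleotide in capitals. They lie at chr15:103034145-103034444 (Hoxc4, plus strand), chr2:74697513-74697812 (Hoxd9, plus strand), chr2:74704365-74704664 (Hoxd8, plus strand) and chr2:74762730-74763029 (Hoxd1, plus strand).
Hoxc4: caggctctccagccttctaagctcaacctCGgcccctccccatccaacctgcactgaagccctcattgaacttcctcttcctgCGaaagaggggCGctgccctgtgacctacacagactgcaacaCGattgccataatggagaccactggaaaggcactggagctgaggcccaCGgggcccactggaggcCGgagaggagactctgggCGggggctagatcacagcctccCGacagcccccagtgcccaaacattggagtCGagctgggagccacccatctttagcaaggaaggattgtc
Hoxd9: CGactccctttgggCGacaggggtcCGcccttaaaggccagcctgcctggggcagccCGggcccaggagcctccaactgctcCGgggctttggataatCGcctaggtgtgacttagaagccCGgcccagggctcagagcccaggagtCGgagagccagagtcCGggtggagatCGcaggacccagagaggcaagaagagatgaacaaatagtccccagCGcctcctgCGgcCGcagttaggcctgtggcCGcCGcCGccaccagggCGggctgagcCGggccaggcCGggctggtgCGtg
Hoxd8: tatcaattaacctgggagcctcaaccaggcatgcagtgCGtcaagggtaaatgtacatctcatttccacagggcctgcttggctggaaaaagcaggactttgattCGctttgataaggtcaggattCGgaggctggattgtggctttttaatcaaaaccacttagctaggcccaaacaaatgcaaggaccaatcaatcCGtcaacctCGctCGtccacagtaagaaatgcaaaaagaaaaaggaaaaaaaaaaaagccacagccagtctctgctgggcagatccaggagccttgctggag
Hoxd1: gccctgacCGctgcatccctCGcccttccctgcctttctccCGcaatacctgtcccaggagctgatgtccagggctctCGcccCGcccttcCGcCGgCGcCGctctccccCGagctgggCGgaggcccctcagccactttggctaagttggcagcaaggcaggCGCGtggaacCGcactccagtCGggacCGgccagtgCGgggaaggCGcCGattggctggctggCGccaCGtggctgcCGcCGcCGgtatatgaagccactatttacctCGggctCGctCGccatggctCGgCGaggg

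Hoxc4 had 9 CpG dinucleotides in its window, Hoxd8 6, Hoxd9 20 and Hoxd1 29. The table of promoters held 21 of the 37 genes, with 23 windows. These had 4 to 45 CpG dinucleotides, with a median of 15 against 7 in all 32851 windows of the table, and 16 of 23 (69.6%) had 10 or more against 43.5% of all windows. Hoxc12 and Hoxc13, which were also called higher in EG 2i, EG 2is and ES 2i lines, had no window in the table. The 3 windows of the other genes called in all of these (Hoxc4, Hoxd8 and Hoxd9) had a median of 9. The 13 windows of genes called higher in none of these had a median of 20. With 3 windows this is a description. The letters TTTATG, a core of the sites of caudal (Cdx) factors, occurred on either strand in 4 of 23 Hox windows (17.4%) and 11.9% of all windows. The letters ATCAAAG, a core of the sites of the TCF/LEF factors of Wnt signalling, occurred in 1 of 23 (4.35%), the window of Hoxd8, and in 3.73% of all windows. Both motifs were chosen after the values were seen, and they do not overlap each other.

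**Figure D4:**
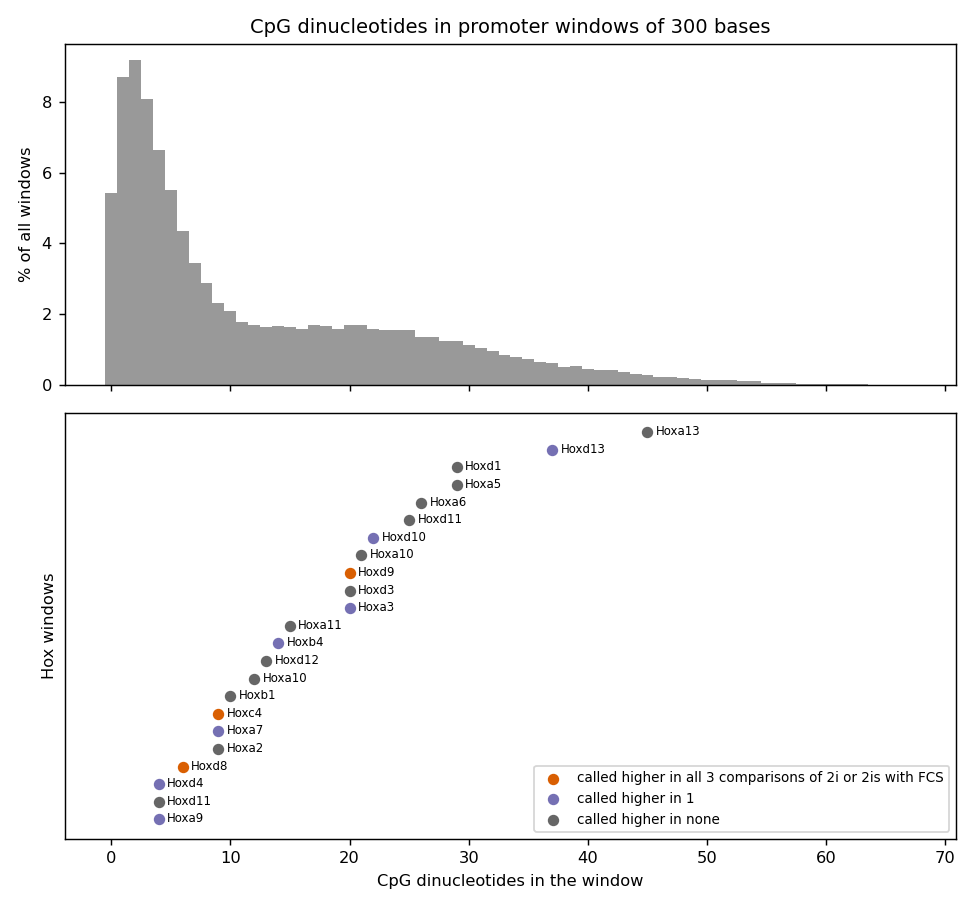
CpG dinucleotides in windows of 300 bases around annotated starts (x axis), as the share of all 32851 windows with each number (upper panel) and for each of 23 windows of 21 Hox genes (lower panel, 1 point a window). Hoxa13 has the most with 45. Of the 5 genes called higher in all 3 comparisons of 2i or 2is with FCS, the 3 with a window have 6, 9 and 20. Hoxc12 and Hoxc13 have no window, and the EG comparisons share the FCS lines.

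The other calls had differences of at most 0.40 on the log2 scale, and most were lost when a line or a term was changed. Hoxd13, a gene of the digits, was at 5.39, 5.41, 5.53 and 5.23 in EG FCS and at 5.59, 5.94, 5.96 and 5.71 in EG 2i lines, with no overlap. It rose by 0.40 (SE 0.10, 1.32-fold, adjusted p = 0.00688) there, and it was at 5.40, 5.65, 5.27 and 5.73 in EG 2is, at 5.53, 5.44, 5.31, 5.38 and 5.36 in ES FCS and at 5.47, 5.40, 5.39, 5.44 and 5.39 in ES 2i lines, with differences of 0.12 and 0.01 that were not called. The EG 2i call was lost with the feeder marker mean as a term, at 0.40 (adjusted p = 0.185), and with only EG 2i and EG FCS arrays in the fit, at 0.38 (adjusted p = 0.0653). Hoxd10, a gene of lumbar motor neurons and the hindlimb, was at 5.26, 5.26, 5.09 and 4.98 in EG FCS and at 5.33, 5.32, 5.57 and 5.61 in EG 2i lines. It was at 5.37, 5.25, 5.29 and 5.32 in EG 2is, at 5.08, 5.16, 5.21, 5.20 and 4.94 in ES FCS and at 5.09, 5.33, 4.99, 5.14 and 5.34 in ES 2i lines. Hoxd10 rose by 0.34 (SE 0.10, adjusted p = 0.0134) in EG 2i lines, a call lost without EG 2i line 4 (adjusted p = 0.0782), with the feeder term (0.225, adjusted p = 0.479) and with only the compared arrays (0.33, adjusted p = 0.0976). In the reference table Hoxd10 overlaps Hoxd11, which was at 0.25 in EG 2i lines and not called (adjusted p = 0.120).

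Hoxa9, a gene of blood progenitors that is often overexpressed in leukaemia, was at 5.03, 5.13, 5.06 and 5.03 in EG FCS and at 5.14, 5.36, 5.36 and 5.35 in EG 2i lines. It was at 5.21, 5.12, 5.23 and 5.26 in EG 2is, at 4.99, 5.02, 4.92, 5.14 and 4.96 in ES FCS and at 5.15, 5.19, 5.09, 5.08 and 5.05 in ES 2i lines, so all its levels were below background. It rose by 0.25 (SE 0.07, adjusted p = 0.00850) in EG 2i lines, a call lost with the feeder term (0.18, adjusted p = 0.395) and with only the compared arrays (0.26, adjusted p = 0.0717). Hoxa3, which acts in the thymus and parathyroid, rose there by 0.27 (SE 0.06, adjusted p = 0.00256) between group means of 4.43 and 4.67, both under the median of the olfactory receptor genes, and its call was lost with only the compared arrays (0.285, adjusted p = 0.0569). Its gene overlaps Hoxa4, Hoxa5 and Hoxa6 in the reference table. Hoxb13, a gene of the tail and prostate, rose by 0.25 (SE 0.09, adjusted p = 0.0396) from 4.66 to 4.91, a call that ended when FCS line 1, 3 or 4 or 2i line 2 or 4 was left out (adjusted p from 0.0512 to 0.116). The Hoxb13 call was also lost with the feeder term (0.185, adjusted p = 0.524) and with only the compared arrays (0.23, adjusted p = 0.214).

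In EG 2is lines the call outside the 5 genes above was of Hoxb9, a gene of the thoracic ribs, at 5.93, 6.28, 6.10 and 6.16 against 5.89, 5.51, 5.70 and 5.94 in EG FCS lines, which overlap. It rose by 0.33 (SE 0.12, adjusted p = 0.0476), and the call was lost without EG FCS line 1, 2 or 3 or EG 2is line 2, 3 or 4 (adjusted p = 0.0526 to 0.199). With only the compared arrays it was at 0.34 and not called (adjusted p = 0.0627). Hoxb9 was at 5.80, 6.14, 6.02 and 5.64 in EG 2i, at 6.06, 5.52, 5.73, 5.72 and 5.66 in ES FCS and at 5.62, 5.87, 5.86, 5.85 and 5.70 in ES 2i lines.

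In ES lines Hoxd4, a gene of the hindbrain and neck, was at 4.99, 4.97, 4.85, 4.91 and 4.80 in FCS and at 4.97, 5.06, 4.98, 5.62 and 5.45 in 2i. Lines 4 and 5 in 2i were high, and lines 1 and 3 in 2i were below the highest FCS line, FCS line 1. Hoxd4 rose by 0.31 (SE 0.09, adjusted p = 0.00960), and the difference was 0.04 with batch 1 arrays alone (adjusted p = 0.822) and 0.50 with batch 2 arrays alone (adjusted p = 0.0287). The call was also lost with the feeder term (0.40, adjusted p = 0.135). Hoxd4 was at 4.81, 4.91, 4.89 and 4.89 in EG FCS, at 5.13, 5.09, 5.08 and 5.06 in EG 2is and at 4.96, 5.04, 5.02 and 5.03 in EG 2i lines. No EG line in 2i or 2is came as low as an EG FCS line, but the fitted differences of 0.24 in EG 2is and 0.19 in EG 2i lines were not called. Hoxb4, known for the expansion of blood stem cells, was at 4.91, 4.86, 4.84, 4.70 and 4.74 in ES FCS and at 5.17, 4.90, 5.08, 5.15 and 5.01 in ES 2i lines and rose by 0.25 (SE 0.06, adjusted p = 0.00263). With batch 1 arrays alone it was at 0.15 (adjusted p = 0.415). In EG lines Hoxb4 was at 4.85, 4.73, 4.99 and 4.88 in FCS, at 4.85, 4.89, 4.89 and 4.93 in 2is and at 4.96, 5.07, 5.06 and 4.88 in 2i.

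Hoxa7, a gene of the thorax, was at 5.59, 5.67, 5.62, 5.80 and 5.62 in ES FCS and at 5.95, 5.78, 5.70, 6.03 and 5.90 in ES 2i lines. It rose by 0.21 (SE 0.08, adjusted p = 0.0499), and the call was lost without ES FCS line 1, 2, 3 or 5 or ES 2i line 1, 4 or 5 (adjusted p = 0.0809 to 0.152). The call was also lost with the feeder term (0.26, adjusted p = 0.304). With batch 1 and batch 2 arrays alone it was lost at 0.24 (adjusted p = 0.293) and 0.195 (adjusted p = 0.125). In EG lines Hoxa7 was at 5.70, 5.66, 5.95 and 5.66 in FCS, at 5.81, 5.93, 5.96 and 5.92 in 2is and at 5.82, 5.82, 6.14 and 6.06 in 2i. Hoxc5, the neighbour of Hoxc4, rose by 0.18 (SE 0.06, adjusted p = 0.0221) from 4.92 to 5.10 in ES lines, a call lost without ES FCS line 3 or ES 2i line 4 (adjusted p = 0.0792 to 0.0872) and at 0.06 with batch 1 arrays alone (adjusted p = 0.753). With the feeder term Hoxc5 was at 0.096 and not called (adjusted p = 0.648). Hoxb6, a gene of the thorax, was at 5.15, 5.26, 5.21, 5.26 and 5.31 in ES FCS and at 4.91, 5.06, 5.07, 5.14 and 5.02 in ES 2i lines. It fell by 0.20 (SE 0.07, adjusted p = 0.0347), and the call was lost without any 1 of ES FCS lines 1, 2, 3 and 5 and ES 2i lines 1, 2, 4 and 5 (adjusted p = 0.0508 to 0.0976). This call was also lost with the feeder term (−0.297, adjusted p = 0.146). With batch 1 and batch 2 arrays alone it was lost at −0.217 (adjusted p = 0.299) and −0.183 (adjusted p = 0.0693). Hoxb6 was at 5.33, 5.50, 5.45 and 5.28 in EG FCS, at 5.30, 5.30, 5.35 and 5.10 in EG 2is and at 5.16, 5.24, 5.42 and 5.64 in EG 2i lines.

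Hoxc9 and Hoxa6 passed no test but were among the 15 widest in group means of the 23 genes called or above background. Hoxc9, which sets thoracic motor neuron identity, had group means from 5.10 ± 0.17 (SD, n = 5) in ES FCS to 5.39 ± 0.14 (SD, n = 4) in EG 2is lines, and it was highest in EG 2is line 3 at 5.58. Its lines were at 5.04, 5.32, 5.14 and 5.17 in EG FCS, at 5.40, 5.31, 5.58 and 5.29 in EG 2is, at 5.16, 5.25, 5.33 and 5.54 in EG 2i, at 5.02, 5.39, 5.12, 4.98 and 5.01 in ES FCS and at 5.09, 5.14, 5.38, 5.42 and 5.28 in ES 2i, with overlap between all groups. Hoxa6, a gene of the trunk, was at 5.15, 5.21, 5.36 and 5.11 in EG FCS, at 5.26, 5.26, 5.41 and 5.37 in EG 2is and at 5.48, 5.36, 5.42 and 5.55 in EG 2i lines. In ES lines it was at 5.33, 5.43, 5.48, 5.38 and 5.08 in FCS and at 5.33, 5.21, 5.20, 5.15 and 5.05 in 2i. The EG difference was 0.22 and the ES difference −0.16, and the difference between them, 0.38 (SE 0.11), was not called (adjusted p = 0.0888).

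In the 22 genes outside those 15 the range of the 5 group means ran from 0.06 for Hoxd3 to 0.27 for Hoxd11. In total 16 of 37 Hox genes were called in at least 1 of the 8 comparisons made (43.2%, against 41.9% of all genes), 21 in none, and 14 were neither called nor above background in any group. By cluster the median range of the group means was 0.24 in a, 0.21 in b, 0.25 in c and 0.34 in d.

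Within a culture few Hox genes were called by origin, EG against ES, or by route into 2i, which does not show that they were alike. Between EG FCS and ES FCS lines 0 of 37 were called by limma (0.0100% of all genes), and 0 at an unadjusted p under 0.05 (4.91% of all genes). The differences ran from −0.18 (Hoxb1) to 0.42 (Hoxc12, SE 0.26). Between EG 2i and EG 2is lines 0 were called (0.00% of all genes). An unadjusted p under 0.05 was found for 4 (10.6% of all genes), Hoxa3, Hoxb9, Hoxd11 and Hoxd13, of which Hoxd13 was the largest at 0.28 (SE 0.10, adjusted p = 0.309). Between EG 2is and ES 2i lines 0 were called (0.0451% of all genes) and 5 had an unadjusted p under 0.05 (9.39% of all genes). Between EG 2i and ES 2i lines 2 were called higher in EG and 0 lower, against 1.20% and 2.52% of all genes (3.72% in either direction). There 11 of 37 had an unadjusted p under 0.05, against 3742 of all 19938 genes. The difference was above 0, higher in EG, for 29 of 37 Hox genes and for 10150 of all genes. Hoxb6 was higher by 0.40 (SE 0.09, adjusted p = 0.0142), a call lost without ES 2i line 1 (adjusted p = 0.0659). Hoxa3 was higher by 0.24 (SE 0.06, adjusted p = 0.0379), a call lost without any 1 of EG 2i lines 2, 3 and 4 and ES 2i lines 1, 2 and 4 (adjusted p = 0.0553 to 0.127). With batch 1 arrays alone Hoxb6 was higher by 0.42 and Hoxa3 by 0.23, neither of them called (adjusted p = 0.0761 and 0.196), and with no batch term 7 genes were called. The batch term of the fit comes from ES lines, since EG lines lie in batch 1. In the test of whether the EG and ES responses to 2i differed, 0 of 37 were called (1.44% of all genes, 0.567% higher and 0.873% lower) and 8 had an unadjusted p under 0.05 (15.8% of all genes).

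Inside the clusters the array also reads 10 genes that are not Hox genes, among them the miRNA genes of the mir-10 and mir-196 families, whose miRNAs target Hox transcripts. One of the 10 was called in EG 2i, in EG 2is and in ES 2i against FCS, the same gene each time: Mir196a-1, which lies beside Hoxb9 in cluster b. Its mature product is shown with those of its relatives (RefSeq, GRCm38.p6, 5′ to 3′, seed bases 2 to 8 in capitals) because Mir196a-2 in cluster c and Mir196b in cluster a share its seed, and Mir10a and Mir10b share another. Mir196a-1 and Mir196a-2 give the same mature miRNA, from chr11:96265187-96265208 (plus strand) and chr15:102973365-102973386 (plus strand), and miR-196b-5p comes from chr6:52230129-52230150 (minus strand). The miR-10a-5p and miR-10b-5p sequences lie at chr11:96317186-96317208 and chr2:74726074-74726096 (both plus strand).
mmu-miR-196a-5p: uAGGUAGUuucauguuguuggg
mmu-miR-196b-5p: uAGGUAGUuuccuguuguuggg
mmu-miR-10a-5p: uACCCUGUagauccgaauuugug
mmu-miR-10b-5p: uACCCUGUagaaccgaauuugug

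Mir196a-1 was at 4.64, 4.73, 4.69 and 4.71 in EG FCS and at 4.68, 4.59, 4.62, 4.69 and 4.69 in ES FCS lines, all below background. It was at 5.55, 6.04, 5.93 and 5.61 in EG 2i, at 6.19, 6.08, 6.20 and 5.91 in EG 2is and at 5.93, 5.46, 5.69, 6.06 and 5.78 in ES 2i lines, all above it. On the log2 scale Mir196a-1 rose by 1.08 in EG 2i (2.11-fold, SE 0.12, adjusted p = 2.81e-06), by 1.40 (SE 0.12, 2.63-fold, adjusted p = 5.87e-08) in EG 2is and by 1.13 (SE 0.10, 2.19-fold, adjusted p = 9.71e-08) in ES 2i lines. Which RNA the probe set reads is not given in the sources used here, so its level was not taken as that of the mature miRNA. Mir196a-2, with the same mature sequence, stayed between 4.70 and 5.18 in all lines, Mir196b between 4.50 and 4.78, Mir10a between 4.89 and 5.47, Mir10b between 4.28 and 4.68 and Mir615, in cluster c, between 4.91 and 5.34. Beside Mir196a-1, Hoxb9 was called in EG 2is lines alone, as given above. Of 24 genes that flank the clusters, the nearest 3 listed on each side, 6 were higher and 2 lower in EG 2i, 4 higher and 2 lower in EG 2is and 5 higher and 1 lower in ES 2i lines. That made 8, 6 and 6 of 24 called in either direction, against 23.9%, 25.6% and 31.6% of all genes. With the smallest adjusted p of the flanking genes, Nfe2l2 beside cluster d, a regulator of the oxidative stress response, rose by 0.72, 0.63 and 0.62 in these groups.

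**Figure D5:**
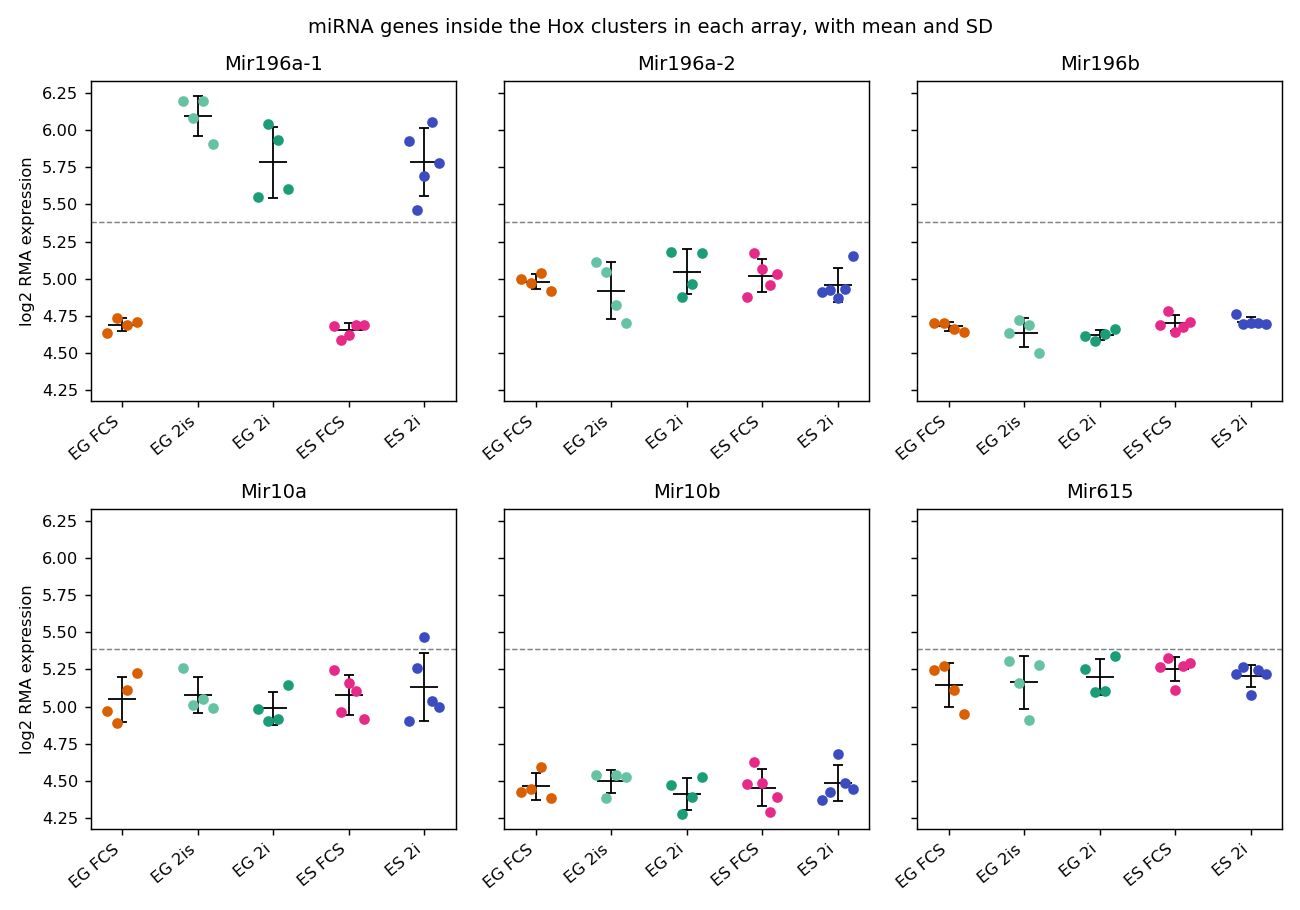
Log2 level of 6 miRNA genes inside the Hox clusters in each of the 22 arrays (points), with group means and SD (bars) and the background level of 5.38 (dashed). Mir196a-1 is at 4.59 to 4.73 in the 9 FCS lines and at 5.46 to 6.20 in the 13 lines in 2i or 2is, and the other 5 genes overlap between the groups.

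Hox proteins bind DNA with TALE homeodomain cofactors, of which 8 genes were measured. In EG 2i and in EG 2is lines 2 were higher and 1 lower than in FCS, and in ES 2i lines 2 were higher and 2 lower. Among all genes 23.9%, 25.6% and 31.6% were called in either direction in EG 2i, EG 2is and ES 2i lines. Meis2 was at 5.34, 5.29, 5.27 and 5.50 in EG FCS and at 5.49, 5.27, 5.03, 4.70 and 4.84 in ES FCS lines. It was at 6.99, 8.60, 8.27 and 7.51 in EG 2i, at 6.85, 7.15, 8.59 and 8.53 in EG 2is and at 7.73, 7.49, 8.24, 8.01 and 7.51 in ES 2i lines, so that no FCS line came near a 2i line. It rose by 2.22 (SE 0.32, 4.66-fold, adjusted p = 4.91e-05), 2.30 (SE 0.31, 4.92-fold, adjusted p = 1.70e-05) and 2.73 (SE 0.27, 6.64-fold, adjusted p = 3.69e-07). Pknox2 rose by 1.63 (SE 0.22, adjusted p = 1.35e-05) in ES 2i lines. It rose by 0.76 (adjusted p = 0.0415) in EG 2i lines, a call that ended when FCS line 1, 2 or 4 or 2i line 2, 3 or 4 was left out. It rose by 0.74 (adjusted p = 0.0378) in EG 2is lines, a call lost without EG FCS line 1 or 2 or EG 2is line 3 or 4. Pbx2 fell by 0.82, 0.70 and 0.46 in EG 2i, EG 2is and ES 2i lines, and in EG lines those calls were lost with the feeder term, where Pbx2 was at −0.635 and −0.524 (adjusted p = 0.0628 and 0.117). Pbx3 fell by 0.60 (SE 0.11, adjusted p = 0.000240) in ES 2i lines.

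Among genes of the factors and complexes that act on Hox clusters calls went in both directions, as they did over all genes. In EG 2i, EG 2is and ES 2i lines 11.4%, 12.7% and 16.6% of all genes were higher and 12.5%, 12.9% and 14.9% lower. Of 6 caudal and ParaHox genes, Cdx1, an activator of Hox genes in the embryo, was called. It was at 5.46, 5.64, 5.73 and 5.72 in EG FCS and at 6.92, 6.52, 6.33 and 6.48 in EG 2i lines and rose by 1.13 (SE 0.21, adjusted p = 0.000463), and it rose by 0.90 (SE 0.20, adjusted p = 0.00212) in EG 2is lines. In ES lines it was at 5.56 to 5.70 in FCS and at 5.64, 6.80, 5.35, 6.32 and 6.21 in 2i, and the difference of 0.44 was not called (adjusted p = 0.0655). Of 17 measured genes of the retinoic acid pathway 2 were higher and 5 lower in EG 2i, 2 higher and 4 lower in EG 2is, and 2 higher and 5 lower in ES 2i lines. Aldh1a2, which makes retinoic acid, rose by 1.07, 0.85 and 0.55 in these groups, while Rdh10, which makes its precursor, fell by 0.74, 1.09 and 1.27 and the receptor gene Rarg fell by 0.67, 1.25 and 1.55.

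Of 11 genes of PRC2, the Polycomb complex that methylates histone H3 at lysine 27, 3 were higher and 3 lower in EG 2i, 3 higher and 4 lower in EG 2is, and 1 higher and 2 lower in ES 2i lines. For this and the next counts, 23.9%, 25.6% and 31.6% of all genes were called in either direction in these comparisons. The subunit gene Suz12 rose by 0.45, 0.41 and 0.30, where the ES call was lost without ES FCS line 2 or ES 2i line 2 (adjusted p = 0.0507 to 0.0528), and Jarid2, which brings the complex to DNA, fell by 0.67, 0.71 and 0.68. Of 13 measured genes of PRC1, the complex that ubiquitinates histone H2A, 4 were higher and 4 lower, 5 higher and 2 lower, and 4 higher and 1 lower, with Phc1 lower by 1.05, 1.22 and 0.97 in size and Bmi1 higher by 0.53, 0.59 and 0.84. Of 11 Trithorax and H3K27 demethylase genes, which oppose Polycomb, 5 were higher and 2 lower in each comparison. Kdm6b, a demethylase of that mark, rose by 0.49, 0.32 and 0.54. Its call was lost in EG 2i with the feeder term (adjusted p = 0.0658) and in ES 2i with batch 1 arrays alone (adjusted p = 0.198). Kdm6a, the other demethylase listed, was at −0.03, −0.02 and −0.40, called lower in ES 2i lines (adjusted p = 0.0220). Psip1 was called lower in each, by 0.57, 0.69 and 0.39 in size. The Even-skipped genes Evx1 and Evx2, which lie next to clusters a and d, were called in 0 of these comparisons by limma, with 1 of the 2 at an unadjusted p under 0.05 in EG 2i and 0 in EG 2is and ES 2i lines.

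Few markers of other cells that could be present were called higher. Among all genes 11.4%, 12.7% and 16.6% were higher and 12.5%, 12.9% and 14.9% lower in EG 2i, EG 2is and ES 2i lines. Of 6 measured genes of the primitive streak and mesoderm 1, Gsc, was higher in each of the 3 comparisons (1.24, 0.97 and 0.91) and 0 were lower. Of 6 neural markers 0 were called higher and 2, 2 and 3 lower, with Pax6 at −0.54, −0.67 and −1.31. Differences above 0 were found for 2, 3 and 1 of the 6. Nes was at 0.50, 0.23 and −0.84 and Tubb3 at 0.43, 0.01 and −0.18, of which Nes in ES 2i lines alone was called. Both were called higher in EG 2i than in ES 2i lines (0.88 and 0.87). The EG and ES responses to 2i differed for Nes and Pax6 (limma adjusted p = 0.0144 and 0.0402). Of 6 endoderm markers 0 were higher, and 0, 1 and 0 were lower. The mean level of the streak and mesoderm list was 5.31 ± 0.08 (SD, n = 4) for EG FCS and 5.50 ± 0.10 for EG 2i lines (SD, n = 4), and 5.44 ± 0.06 for ES FCS and 5.47 ± 0.09 for ES 2i lines (SD, n = 5). The part of such cells in the Hox differences was not tested.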

How the data were processed

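The values are the log2 expression values of the series matrix that the authors deposited, 1 column for each of 22 arrays. Affymetrix Expression Console, RMA and limma are named in the submitters' processing notes. Whether the authors adjusted the deposited log2 values for batch is not given in the sources used here. Of 28853 probe sets, 21789 had 1 gene symbol, 1621 several and 5443 none listed, and the probe set with the highest mean was kept, which left 19938 genes. The array medians were 5.54 to 5.62, no 2 arrays held identical values, and the number of arrays limits the precision. All 22 arrays were fitted with limma 3.58.1 in R 4.3.3, with group, batch and sex as terms, and 8 comparisons were tested, with p-values adjusted by Benjamini and Hochberg over all genes and called under 0.05. Fold changes are on the deposited log2 scale. The fit was tested on simulated data. The members and lists were chosen with earlier results of these data known. Values by array are given for Hox genes called in any comparison or above background in any group, the 15 with the widest group means. From each list up to 3 called genes with the smallest adjusted p were eligible to be named. Alternatives were another centring or normalization, other terms, array weights, a background filter, batches alone, the replicate number as a block and each line left out.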

Additional observations from a re-analysis of the deposited data

Results flagged for a closer look

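In 4 of 80 groups of lines 1 line stood apart from the rest by Dixon's gap test, and chance marks about 1 in 20 groups. Hoxc13 was at 5.23 in EG FCS line 2, with the nearest line at 5.38, and at 5.58 in ES FCS line 1, with the nearest at 5.08. Hoxa7 was at 5.95 in EG FCS line 3, with the nearest at 5.70. Hoxa9 was at 5.14 in EG 2i line 1, with the nearest at 5.35. The response of the cofactor gene Pbx3 to 2i differed between EG and ES lines by 0.85 on the log2 scale (SE 0.168, limma adjusted p = 0.0184), with 0.24 in EG lines, which was not called, and −0.60 in ES lines.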

How the results depend on the processing

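No result changed direction under the alternatives run. The 10 Hox genes called in EG 2i against FCS became 5 with genes above background alone, 4 with the feeder marker mean as a term and 4 with the compared arrays alone, and 6 to 13 with 1 line left out. The 10 called in ES 2i against FCS became 5, 6 with the feeder term and 3 with batch 1 alone, and 7 to 11 with 1 line left out, and the 6 called in EG 2is became 5 to 6. The 2 called between EG 2i and ES 2i became 1 with arrays centred, normalized again or with a batch term alone, 6 with no batch and sex terms, 7 with a sex term alone, 0 with genes above background, the compared arrays or batch 1 alone, and 0 to 3 with 1 line left out. These 2, Hoxa3 and Hoxb6, have means of 4.50 and 5.25 over all arrays. The background filter took both out, so neither could be called with it. With array weights 2 genes differed in response, against 0, and with 1 line left out that count and those of EG 2i against EG 2is, EG FCS against ES FCS and EG 2is against ES 2i stayed at 0. The 17 genes above background became 29, 32 and 8 with the Eif2s3y level, the olfactory median and the 99th percentile. Same-numbered ES lines had deviations correlated at 0.05, −0.01, 0.17, 0.05 and 0.24, so the numbers were not taken as pairs. The labels do give same-numbered ES lines the same sex and batch, and whether they are of 1 line is not given. With the replicate number as a block 10, 5 and 11 genes were called in EG 2i, EG 2is and ES 2i against FCS, 1 between EG 2i and ES 2i and 0 in the others, and 8 with ES arrays alone, an alternative chosen after seeing the data. Except for those left-out lines and terms shown by name, the cause of each change was not tested. Most Hox signals lie near background, which limits what small differences can show.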
